A study of Caenorhabditis elegans with 48 samples.

Results

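The comparison is between lin-28(0) larvae sampled at 18, 19, 20 and 21 h and WT larvae sampled at 16, 17, 18 and 19 h of growth with food, the second round of the larval rhythm in these cultures. It uses 8 small RNA libraries, 4 per genotype, of the 48 in the series. The libraries were chosen by their sampling hour, with every lin-28(0) library taken 2 h later than its WT partner, because the miRNA profiles of the mutant culture lagged. That offset was selected on the measured time courses of the miRNA strands themselves, and the differences reported here are those left at this offset. The lin-28(0) animals (strain HW2706) carry the deletion allele lin-28(xe192) together with the luciferase and GFP reporter xeSi312, which is driven by the eft-3 promoter. The WT animals (strain HW1993) carry the same reporter and unc-119(+) construct and an intact lin-28, so the reporter is shared by both groups. Both were untreated whole larvae in liquid culture at 25°C, at 1000 animals per mL. The time course describes a single culture of each strain, sampled hourly, and the 4 libraries per genotype are neighbouring hours of that culture. Every p-value therefore measures the spread between hours and not between independent cultures.

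A miRNA precursor is cut by Dicer into a duplex whose strands, named -5p and -3p after the arm they come from, are separated when an Argonaute protein retains the guide and the passenger is mostly lost. The RNA-binding protein LIN-28 blocks the maturation of let-7 in early larvae, and let-7 in turn times the passage from larva to adult. Animals without LIN-28 are known to skip cell fates of the second larval stage, so a stage in the mutant is not in every tissue the WT stage, and matching the hours matches the tempo of the miRNA profile only. The question of the comparison was which strands still differ once the lag of the mutant's miRNA profiles is taken out.

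The offset itself is a description and was not tested. For 244 strands, with both let-7 strands left out, the root mean square of the log2 differences between the genotypes (WT 16 to 19 h held fixed, 1 CPM added) was 0.46 at equal hours, 0.38 at an offset of 1 h, 0.33 at 2 h, 0.37 at 3 h and 0.46 at 4 h. The curve had its low point at 2 h, with 1 and 3 h just outside it. With the let-7 strands included the values were 0.680, 0.661, 0.663, 0.679 and 0.710 from 0 to 4 h, so that the lowest was at 1 h and 2 h was the lowest only with let-7 left out. The shift that best aligned mean-centred profiles was 0.5 h for WT 7 to 10 h, 1.5 h for WT 12 to 15 h and 2.5 h for WT 16 to 18 h, with and without the let-7 strands. For WT 5 to 18 h as a whole it was 1.25 h. Shifts between whole hours used levels interpolated between neighbouring libraries, which smooths noise and can favour such shifts. At shifts of 0 and 2 h, without let-7, the root mean square was 0.33 and 0.51 for WT 7 to 10 h. It was 0.38 and 0.37 for WT 12 to 15 h, and 0.40 and 0.30 for WT 16 to 18 h. By these measures the mutant profiles fell behind by more in later windows. A shift of 2 h aligned WT 16 to 18 h better than equal hours did, and WT 7 to 10 h worse.

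**Figure D1:**
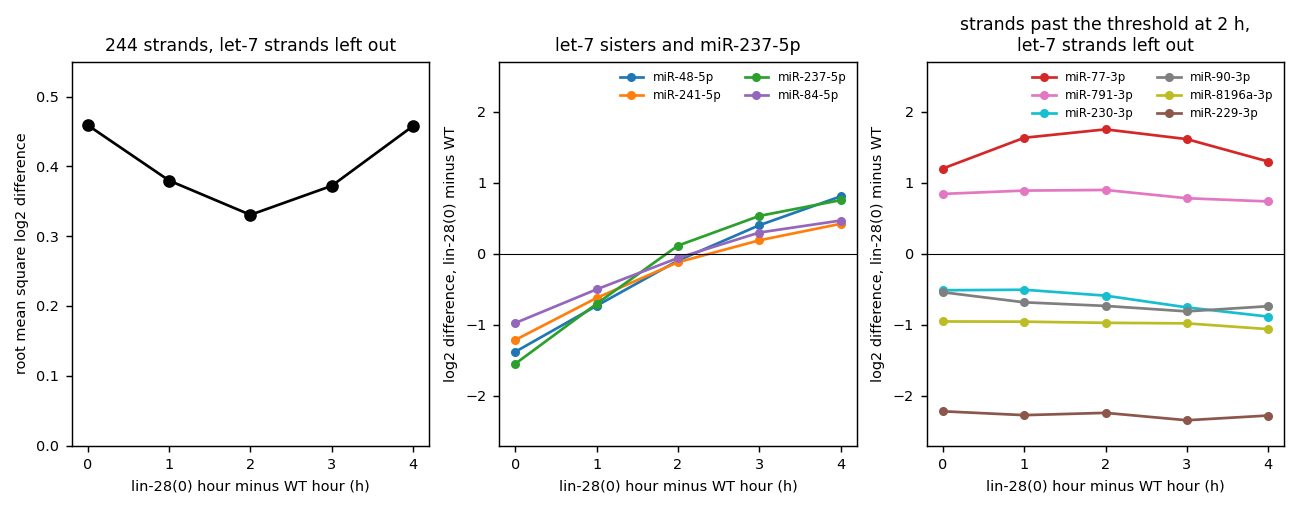
Left, root mean square log2 difference over 244 strands against the offset between the lin-28(0) and the WT hour, lowest at 2 h (0.33). Middle and right, fitted log2 differences (lin-28(0) minus WT, WT 16 to 19 h fixed) of single strands at offsets of 0 to 4 h: miR-48-5p, miR-241-5p, miR-237-5p and miR-84-5p pass from below 0 to above 0, while the 6 strands on the right stay on their side of 0. The offsets share the WT libraries and most lin-28(0) libraries.

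The 8 libraries held 6276208 to 8315921 miRNA counts in lin-28(0) and 4729803 to 7626655 in WT, and the 10 most abundant strands took 67.9% to 69.8% of them in lin-28(0) and 69.7% to 72.1% in WT. A level is the strand's count per 1000000 miRNA reads counted in its library (CPM). It measures a proportion of the reads rather than molecules per larva, and 1 count was worth at most 0.211 CPM. Of 437 strands in the table, 374 had a count in these libraries, and 246 whose count averaged at least 10 over all 48 libraries were tested. Just inside this minimum stood miR-2217a-3p (mean count 10.3) and just outside it miR-252-3p (9.88). The lin-28 transcript is an mRNA, so the deletion has no check in these counts. Tissue markers were present and none passed the test. The muscle strand miR-1-3p averaged 50805 CPM in lin-28(0) and 54139 CPM in WT, and miR-228-5p, made in glia and seam cells, 20988 and 23128 CPM. The neuronal strands miR-124-3p and lsy-6-3p averaged 26.7 and 22.4 CPM in lin-28(0) against 23.4 and 23.7 CPM in WT. The intestinal miR-60-3p averaged 115.3 and 91.5 CPM, and miR-786-3p was near 0 in all 8 libraries. In RNA of whole larvae, fewer cells of a type and less miRNA per cell cannot be told apart.

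At the matched hours 8 of 246 strands differed (3.25%; edgeR quasi-likelihood test with Benjamini-Hochberg adjustment, adjusted p under 0.01). In lin-28(0) 4 strands were higher (1.63%), namely let-7-5p, let-7-3p, miR-77-3p and miR-791-3p, and 4 were lower (1.63%), namely miR-229-3p, miR-90-3p, miR-8196a-3p and miR-230-3p. Both strands of a precursor were among the 8 for let-7 alone. The median log2 difference of all 246 strands was 0.04, and 7 strands reached 1 in either direction, 3 of them at about 1 CPM. The libraries of the genotypes did not overlap for 20 of 246 strands (8.13%), 14 higher and 6 lower in lin-28(0), and 7 of the 8 strands were among them. Leaving out 1 library gave 5 calls without lin-28(0) 19 h, without WT 17 h or without WT 18 h, and up to 11 calls without WT 19 h.

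**Figure D2:**
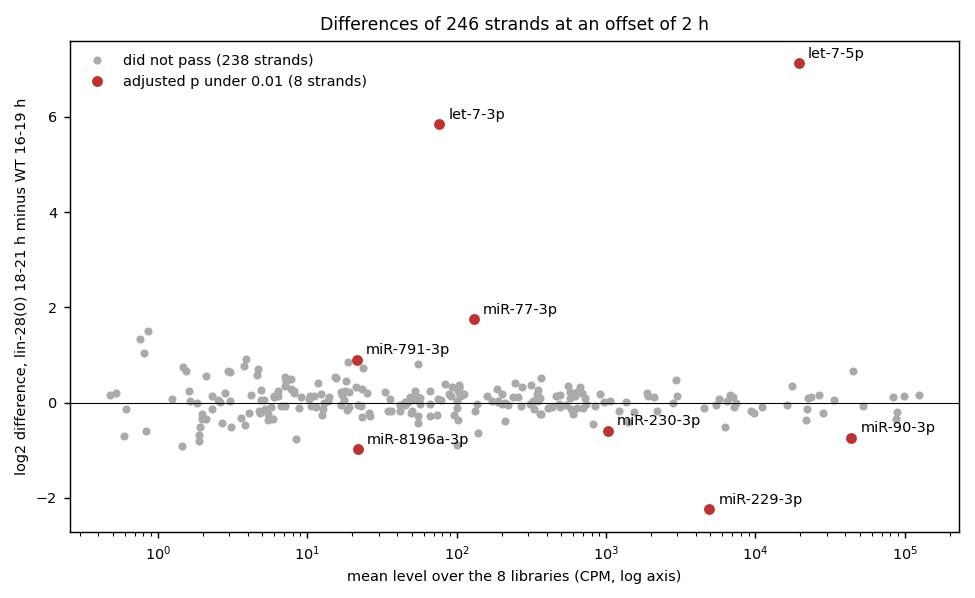
Log2 difference (lin-28(0) 18 to 21 h minus WT 16 to 19 h) of each of 246 strands against its mean level over the 8 libraries in CPM (log axis); red points passed the test. The let-7 strands stand far above the others, at 7.13 and 5.84, and miR-229-3p lies lowest, at -2.24.

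The let-7 guide had by far the widest gap. let-7-5p stood at 28608, 36717, 41487 and 47208 CPM in lin-28(0) at 18, 19, 20 and 21 h, against 85.5, 204.01, 466.7 and 645 CPM in WT at 16, 17, 18 and 19 h. The groups were far apart, and both climbed from hour to hour. let-7-5p rose by 7.13 on the log2 scale (SE 0.41, 139.9-fold, adjusted p = 5.0e-06). Pair by pair the log2 difference narrowed with the hour, from 8.37 and 7.48 in the earlier pairs to 6.47 and 6.19 in the later ones, as the WT level grew more steeply. let-7-5p made up 2.86% to 4.72% of all miRNA counts in lin-28(0) and 0.00855% to 0.0645% in WT.

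The passenger strand let-7-3p, also called let-7*, moved the same way at a far lower level. It gave 104.3, 189.2, 173.2 and 134.3 CPM in lin-28(0), against 0.75, 2.90, 4.72 and 1.69 CPM in WT. The WT values rest on 4, 15, 36 and 8 counts, with exact 95% Poisson intervals of 0.204 to 1.92, 1.62 to 4.78, 3.31 to 6.53 and 0.730 to 3.33 CPM that cover counting error only. In both genotypes the middle hours were the highest. let-7-3p rose by 5.84 (SE 0.38, adjusted p = 4.1e-06). As a share of let-7-5p it was 0.365%, 0.515%, 0.417% and 0.285% in lin-28(0) and 0.877%, 1.42%, 1.01% and 0.262% in WT, and these shares overlapped between the genotypes.

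**Figure D3:**
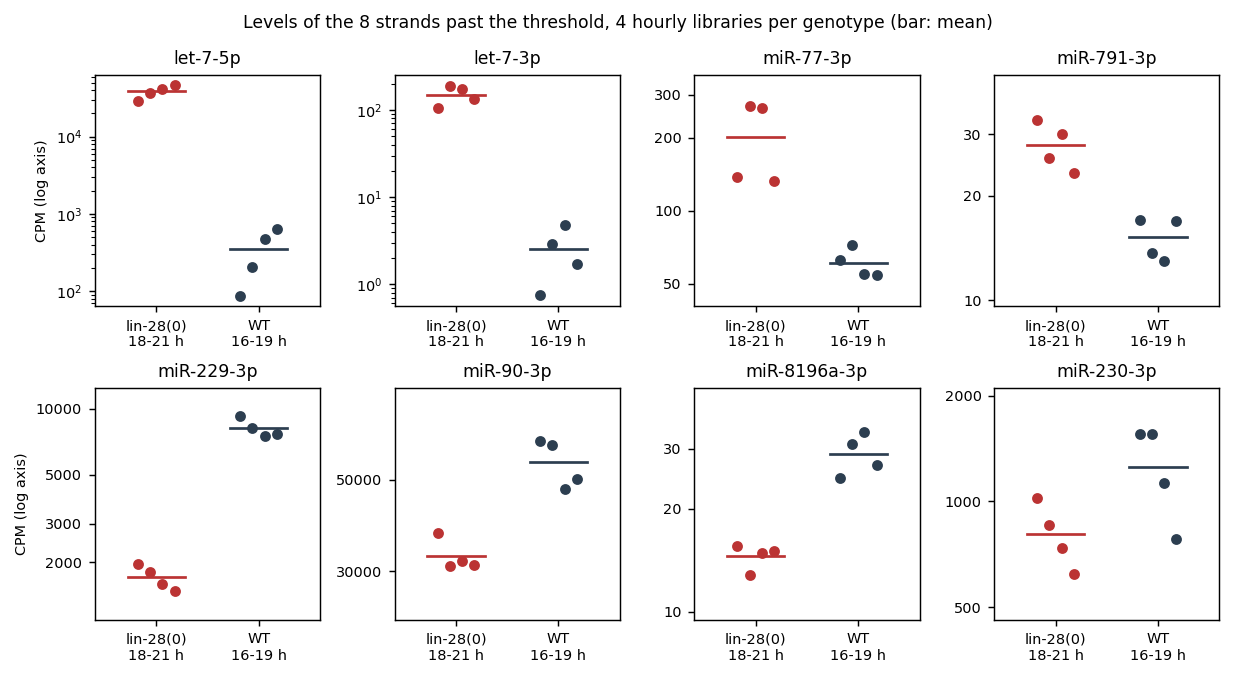
Levels of the 8 strands past the threshold in CPM (log axes that differ between panels), with the 4 lin-28(0) libraries left of the 4 WT libraries, each in order of the hour, and a bar at the mean. The groups overlap for miR-230-3p and for none of the other 7.

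None of the sisters of let-7 passed the test at the matched hours. miR-48-5p, miR-84-5p and miR-241-5p share the let-7 seed and act together to end second-stage fates by repressing hbl-1. miR-48-5p stood at 5509, 7823, 12241 and 14635 CPM in lin-28(0), against 3429, 9511, 15965 and 19021 CPM in WT. The values climbed in both genotypes and overlapped, and the mutant was ahead in the earliest pair only. Its log2 difference was -0.10 (SE 0.19, adjusted p = 0.81), that of miR-84-5p -0.06 (SE 0.12) and that of miR-241-5p -0.12 (SE 0.18), with errors that leave room for differences of this size in either direction. At equal hours, with lin-28(0) 16 to 19 h against the same WT libraries, 7 strands differed (2.85%), 2 higher and 5 lower, and 4 of them also differed at the offset. The 3 others were these sisters: miR-48-5p fell by 1.38 (adjusted p = 0.0017), miR-241-5p by 1.21 (adjusted p = 0.0032) and miR-84-5p by 0.98 (adjusted p = 0.0017). With offsets of 3 and 4 h their values turned positive, with 0.40 and 0.81 for miR-48-5p, 0.30 and 0.47 for miR-84-5p and 0.19 and 0.42 for miR-241-5p, none past the threshold. The change between offsets was not tested, since the comparisons share the WT libraries. The sisters are also among the strands on whose time courses the offset was selected. Their values near 0 at 2 h are therefore not independent of that choice.

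Of the -5p strands of the let-7 family 1 of 7 rose, let-7 itself, and 0 fell, with a median of -0.06, beside 1.63% in each direction and a median of 0.04 for all tested strands. The minor members had 731 CPM in lin-28(0) and 642 CPM in WT (miR-793, log2 difference 0.20, SE 0.09), 95.9 and 87.7 CPM (miR-794-5p, 0.14, SE 0.15) and 1404 and 1652 CPM (miR-795-5p, -0.20, SE 0.13). The family's -5p strands summed to 39260 to 71413 CPM in lin-28(0) and 8330 to 31087 CPM in WT. let-7 took 66.1% to 72.9% of that sum in lin-28(0) and 1.03% to 2.07% in WT. Among the -3p strands of the sisters, miR-241-3p averaged 1195 ± 185 CPM in lin-28(0) and 1620.4 ± 348 CPM in WT (SD, n = 4 hours each), was lower in 4 of 4 pairs and missed the threshold (log2 difference -0.41, SE 0.12, adjusted p = 0.080). miR-48-3p (0.30, SE 0.16), miR-84-3p (0.03, SE 0.12) and miR-795-3p (-0.27, SE 0.17) did not pass either.

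Neither guide of the lin-4 family passed. lin-4-5p, the repressor of lin-14 and lin-28, averaged 323 ± 23.4 CPM in lin-28(0) and 322 ± 67.1 CPM in WT (SD, n = 4 hours each), a log2 difference of 0.04 (SE 0.11). miR-237-5p stood at 3408, 6146, 8806 and 9457 CPM in lin-28(0) and at 1803, 6437, 9429 and 10908 CPM in WT. The values overlapped along the whole climb. The log2 difference of miR-237-5p was 0.11 (SE 0.26) at the offset and -1.55 (adjusted p = 0.013) at equal hours, neither past the threshold. Like the sisters, miR-237-5p is among the strands on which the offset was selected. lin-4-3p ranged widely, over 3.03 to 9.08 CPM in lin-28(0) and 2.62 to 19.9 CPM in WT. miR-237-3p likewise lay at 94.2 to 163.8 CPM in lin-28(0) and 45.9 to 276.8 CPM in WT (log2 difference -0.02, SE 0.41).

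Of the strands lower in lin-28(0), miR-229-3p had the widest gap. It is made from mir-229, which lies in a cluster with mir-64, mir-65 and mir-66. miR-229-3p gave 1970.1, 1802, 1590.1 and 1478 CPM in lin-28(0), against 9230.2, 8149.5, 7511 and 7664 CPM in WT. Every lin-28(0) library was below every WT library, and both groups were highest in the earliest hour. miR-229-3p fell by 2.24 on the log2 scale (SE 0.09, adjusted p = 5.2e-08), and the 4 pairs gave -2.23, -2.18, -2.24 and -2.37. It passed under all 24 alternatives. The other strand, miR-229-5p, stood at 7819, 6662, 6898 and 6906 CPM in lin-28(0) and at 6650, 7405, 6351 and 5447 CPM in WT, with a log2 difference of 0.15 (SE 0.08, adjusted p = 0.32). The ratio of miR-229-3p to miR-229-5p was 0.214 to 0.270 in lin-28(0) and 1.10 to 1.41 in WT, so that the more abundant strand of the pair was -5p in lin-28(0) and -3p in WT. Both strands together made 8385 to 9789 CPM in lin-28(0) and 13111 to 15880 CPM in WT. Of the 8 strands of the cluster 0 rose and 1 fell, beside 1.63% in each direction over all strands. The -5p strands of miR-64, miR-65 and miR-66 averaged 27895, 19553 and 33726 CPM in lin-28(0) and 25203, 15560 and 33115 CPM in WT, with log2 differences of 0.17, 0.35 and 0.05 that did not pass. Their -3p strands were rare, with means of 8.49 to 32.0 CPM in lin-28(0) and 5.79 to 37.8 CPM in WT, and none passed.

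miR-90-3p, a member of the family of miR-50 and miR-62, was the most abundant of the strands that fell. It stood at 37080, 30866, 31748 and 31089 CPM in lin-28(0), against 61971, 60894, 47505 and 50337 CPM in WT. The groups did not overlap, and the WT level was higher at 16 and 17 h than at 18 and 19 h. miR-90-3p fell by 0.74 (SE 0.09, adjusted p = 5.1e-04) and made up 3.09% to 3.71% of the counts in lin-28(0) and 4.75% to 6.20% in WT. Its passenger miR-90-5p was at 39.1 ± 5.15 CPM in lin-28(0) and 45.0 ± 7.19 CPM in WT (SD, n = 4 hours each), a log2 difference of -0.19 (SE 0.13). At equal hours miR-90-3p had -0.54 and lay just outside the threshold (adjusted p = 0.011).

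miR-8196a-3p was a rare strand with a clear gap. It gave 15.6, 12.8, 14.8 and 15.0 CPM in lin-28(0) and 24.6, 30.9, 33.4 and 26.9 CPM in WT. No library of lin-28(0) reached the lowest of WT. miR-8196a-3p fell by 0.97 (SE 0.13, adjusted p = 0.0013) and passed under all 24 alternatives. miR-230-3p, a strand with a rhythmic level, gave 1019.5, 859.6, 735 and 622 CPM in lin-28(0) and 1560.4, 1557, 1126 and 780 CPM in WT. Both groups declined over the 4 hours and they overlapped, but the mutant was lower in 4 of 4 pairs. miR-230-3p fell by 0.59 (SE 0.09, adjusted p = 0.0032), a call that rests on the time term of the model: without it the adjusted p was 0.25, and with a spline over all matched hours it was 0.23. It also missed the threshold at offsets of 0 and 1 h (adjusted p = 0.13 and 0.078) and without any of lin-28(0) 18, 19 and 20 h and WT 17 and 18 h (adjusted p = 0.010 to 0.023). Its other strand miR-230-5p did not pass (-0.25, SE 0.16).

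miR-77-3p rose most after let-7. It stood at 137.5, 269.6, 265 and 131.9 CPM in lin-28(0), against 62.2, 72.4, 54.5 and 54.3 CPM in WT. Every lin-28(0) library was above every WT library, and the values of 19 and 20 h were the highest. miR-77-3p rose by 1.75 (SE 0.26, adjusted p = 0.0025). The call was lost without lin-28(0) 19 h, WT 17 h, WT 18 h or WT 19 h (adjusted p = 0.011 to 0.024) at equal hours (1.20, adjusted p = 0.036), with no filter (adjusted p = 0.028) and with separate time trends (adjusted p = 0.011). miR-77-5p, the more abundant strand over the series, climbed in both genotypes, through 163.1, 227.5, 272 and 392 CPM in lin-28(0) and 100.3, 138.0, 177.5 and 485 CPM in WT, and did not pass (0.42, SE 0.21). It passed with 0.73 without WT 19 h (adjusted p = 0.0012), the library in which it was highest.

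miR-791-3p, from the locus known for its role in carbon dioxide-sensing neurons, gave 33.0, 25.6, 30.1 and 23.2 CPM in lin-28(0) and 17.1, 13.7, 13.0 and 16.9 CPM in WT. The groups did not overlap. miR-791-3p rose by 0.90 (SE 0.16, adjusted p = 0.0077), the weakest of the 8 calls, which held in 6 of 24 alternatives. It did not pass with the matched pairs as a replicate block (adjusted p = 0.011), at any of the other 4 offsets (0.73 to 0.89, adjusted p = 0.017 to 0.029), or without any 1 library other than WT 19 h (adjusted p = 0.014 to 0.034), and its adjusted p was 0.42 in the spline over all matched hours. miR-791-5p was at 47.2 ± 5.08 CPM in lin-28(0) and 47.3 ± 3.96 CPM in WT (SD, n = 4 hours each; log2 difference 0.01, SE 0.11).

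Just below the threshold stood strands that were higher in lin-28(0) in 4 of 4 pairs. miR-357-3p gave 22.3, 18.2, 22.8 and 32.6 CPM in lin-28(0) and 12.9, 15.2, 12.5 and 12.5 CPM in WT (log2 difference 0.86, SE 0.17, adjusted p = 0.012). miR-355-5p gave 30.7, 25.0, 26.9 and 33.9 CPM in lin-28(0) and 14.4, 21.0, 17.8 and 17.8 CPM in WT (0.73, SE 0.14, adjusted p = 0.012). Both pairs of groups were apart without overlap. miR-1-5p, the passenger of the muscle miRNA (0.82, adjusted p = 0.047), miR-239a-5p (0.51, adjusted p = 0.039) and miR-239a-3p (0.54, adjusted p = 0.049), of a locus linked to stress and life span, were likewise higher in lin-28(0) with no overlap. These 5 strands are named after their values were seen, and the count at an adjusted p under 0.05 was 13. They were followed to lin-28(0) 22 and 23 h against WT 20 and 21 h. There miR-239a-5p (319 and 615 CPM), miR-239a-3p (30.7 and 37.8 CPM) and miR-1-5p (52.8 and 65.6 CPM) were lower in lin-28(0). miR-357-3p (59.0 and 17.8 CPM) and miR-355-5p (25.9 and 16.2 CPM) stayed higher. Among abundant strands, miR-71-5p, a strand known to promote long life, declined over the hours of both genotypes, with 79157, 60763, 42585 and 27678 CPM in lin-28(0) and 71886, 47817, 16520 and 15783 CPM in WT. It was higher in lin-28(0) in 4 of 4 pairs and did not pass (log2 difference 0.65, SE 0.18, adjusted p = 0.080). At equal hours the log2 difference of miR-71-5p was 1.23, so its value moved with the offset.

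No strand of several other families passed, beside 3.25% of all tested strands. With so few strands in each, these counts show nothing particular to the families. In the miR-35 family, on which embryos depend, 0 of 7 tested -3p strands rose and 0 fell, with a median of 0.16 (miR-41-3p was too low to test), and miR-35-3p averaged 601 CPM in lin-28(0) and 538 CPM in WT. The miR-51 family, likewise essential for embryos, had 0 of 6 past the threshold (median 0.10). Its miR-54-3p had the largest value, with 3439 ± 653 CPM in lin-28(0) and 2476 ± 252 CPM in WT (SD, n = 4 hours each), a log2 difference of 0.48 and an adjusted p of 0.084. In the miR-58 family 0 of 4 passed (median 0.07), and its miR-81-3p, the most abundant strand of these libraries, stood at 130330 CPM in lin-28(0) and 118460 CPM in WT. In the miR-44 family 0 of 4 passed (median -0.13), and the separate values of miR-44-3p and miR-45-3p are uncertain because they share reads. In a partial list of rhythmic strands, which leaves out many that oscillate, 1 of 11 tested rose (miR-77-3p) and 1 fell (miR-230-3p), with a median of 0.14, beside 1.63% in each direction over all strands. With 11 strands these counts show nothing particular to the list.

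A list drawn up around EBAX-1, a ubiquitin ligase receptor that promotes the decay of certain miRNAs, had 12 tested strands, of which 0 passed (median 0.12). It includes the miR-35 family, miR-71-5p, both strands of miR-788, guide and passenger, and miR-235-3p. The last, known to keep blast cells dormant during starvation, averaged 5150.2 CPM in lin-28(0) and 7372 CPM in WT with a wide error (log2 difference -0.51, SE 0.57). Of 4 strands taken as examples of late-rising miRNAs, not a full list, 2 were tested, miR-357-3p and miR-240-5p (0.93, SE 0.33, adjusted p = 0.15), and 0 passed. Over all 246 strands 3.25% passed and the median was 0.04. Beside 1.63% in each direction over all strands, of 84 tested passenger strands 3 rose and 1 fell, with a median of 0.05, and of the other 162 strands 1 rose and 3 fell, with a median of 0.04. A passenger here is the strand of the lower mean over the 48 libraries of both genotypes. The 1 that fell was miR-229-3p, the more abundant strand of its pair in the WT libraries compared. Among those that rose was miR-77-3p, which the study lists as a guide. The split therefore depends on how the strands are labelled.

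Passenger to guide ratios were taken for 84 precursors whose strands were both tested, with the guide as the strand of the higher mean over the 48 libraries and 1 CPM added to each. The 4 ratios of lin-28(0) did not overlap the 4 of WT for 7 precursors, 4 higher and 3 lower in lin-28(0), or 8.33% beside the 8.13% of single strands. These values have no test. For mir-229 the log2 ratio was -2.05 ± 0.15 in lin-28(0) and 0.34 ± 0.17 in WT (SD, n = 4 hours each). For mir-791 it was -0.74 ± 0.12 in lin-28(0) and -1.58 ± 0.19 in WT, for mir-90 -9.67 ± 0.08 and -10.23 ± 0.29, and for mir-1 -9.48 ± 0.43 and -10.38 ± 0.42. Ratios were lower in lin-28(0) for mir-124 (-3.03 and -2.38) and mir-60 (-1.31 and -0.77), and higher for mir-1829b (-3.30 and -3.56). For let-7 the means were -8.01 ± 0.36 in lin-28(0) and -6.40 ± 1.05 in WT, with overlap, and the WT values depend on the added 1 CPM.

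**Figure D4:**
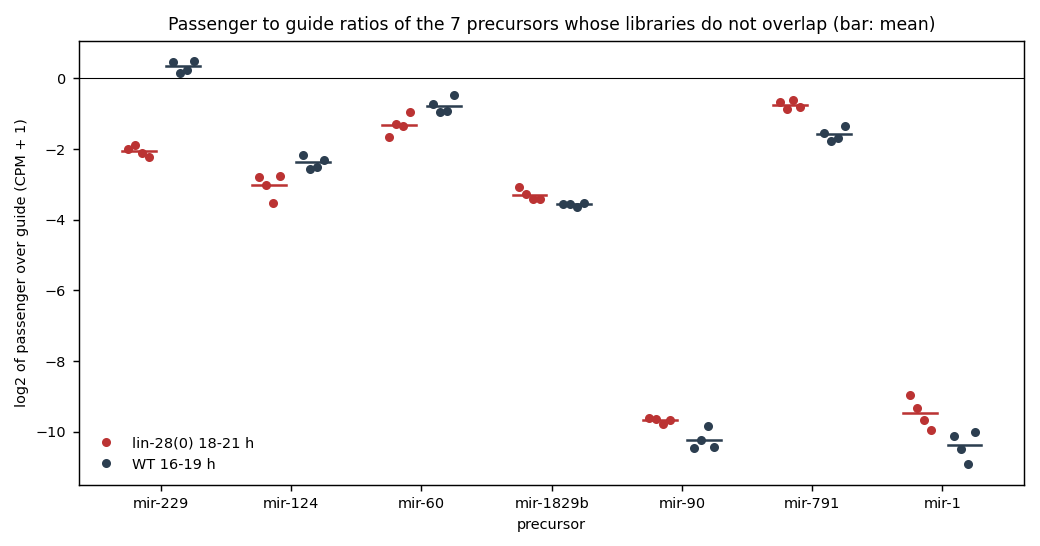
Log2 ratio of passenger over guide (1 CPM added) in each of the 4 lin-28(0) and 4 WT libraries for the 7 precursors whose ratios do not overlap, with a bar at the mean. mir-229 has the widest gap, with means of -2.05 in lin-28(0) and 0.34 in WT.

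Disjoint libraries 9 h earlier gave the same measure in the first cycle. They come from the same cultures, and the offset was selected on the same time courses, so they are not an independent replication. With the offset of 2 h kept (lin-28(0) 9 to 12 h over WT 7 to 10 h), 1.22% of the 246 strands differed. These were let-7-5p (9.70), let-7-3p (8.45) and miR-229-3p (-2.40), and all 3 were also called in the second cycle. Because early profiles aligned at a smaller shift, offsets of 1 and 0 h were added after seeing the data, and 6 (2.44%) and 8 strands (3.25%) then differed. At both, the 4 strands that also differed in the second cycle were let-7-5p, let-7-3p, miR-229-3p and miR-90-3p. The value of miR-90-3p in the first cycle was -0.49 (adjusted p = 0.020), -0.53 (0.0020) and -0.53 (9.7e-04) at 2, 1 and 0 h. In the same order miR-8196a-3p had -0.64, -0.77 and -0.62, miR-230-3p -0.45, -0.06 and 0.10, miR-77-3p 1.92, 1.00 and 0.70, and miR-791-3p 0.29, 0.82 and 0.80, and none of these 4 passed. miR-355-5p, not called in the second cycle, had 1.13, 1.09 and 1.25 and passed at 0 h (adjusted p = 0.0048).

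Whether the genotype difference changed between the cycles was tested in a model of 16 libraries. edgeR called 0 of 246 strands, with 35 at an unadjusted p under 0.05, while DESeq2 called 8 and limma 0. The change of let-7-5p was -2.60 (SE 0.58, adjusted p = 0.031) and that of miR-48-5p -1.96 (SE 0.39, adjusted p = 0.025). For miR-77-5p it was -2.30 (SE 0.49, adjusted p = 0.025). With the first cycle at offsets of 1 and 0 h the change of let-7-5p was -1.91 and -0.67 and that of miR-48-5p -1.08 and 0.06. For miR-77-5p it was -1.14 and 0.25, so each of these depended on how the first cycle was aligned. miR-65-5p, of the mir-229 cluster, had a change of 0.55 (SE 0.16, adjusted p = 0.11) with the offset of 2 h kept. At 1 and 0 h its change was 0.63 (adjusted p = 0.042) and 0.66 (adjusted p = 0.0035), the latter past the threshold. Its first-cycle difference at 0 h was -0.34 (adjusted p = 0.0065), against 0.35 in the second cycle (adjusted p = 0.080). The change of miR-229-3p was 0.10 (SE 0.14).

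Between the cycles, lin-28(0) at 14 to 17 h and WT at 12 to 15 h gave 29834 and 88.0 CPM of let-7-5p, 1706 and 11195 CPM of miR-229-3p, and 41515 and 64915 CPM of miR-90-3p. let-7-3p had no count in the 4 WT libraries of that window and 17.03 CPM over the summed counts of lin-28(0), at least 128.9-fold higher with the WT group at a floor of 3 counts. For miR-77-3p the window gave 93.4 and 55.7 CPM, and for miR-8196a-3p 17.3 and 30.8 CPM. In the last hours, lin-28(0) at 22 and 23 h against WT at 20 and 21 h, let-7-5p averaged 40563 and 589 CPM, miR-229-3p 1755 and 7076 CPM, and miR-8196a-3p 12.4 and 24.1 CPM. miR-90-3p had narrowed to 32869 and 42014 CPM, and miR-77-3p was now lower in lin-28(0), at 110.5 CPM against 171.3 CPM in WT. Over all 22 matched hours, let-7-5p and let-7-3p were higher in lin-28(0) at 22 and miR-229-3p lower at 22. miR-90-3p and miR-8196a-3p were each lower at 20, miR-77-3p was higher at 20, miR-791-3p higher at 18 and miR-230-3p lower at 14. This tally includes the 4 hours compared and keeps the 2 h offset throughout, though early profiles aligned at a smaller shift. miR-77-3p climbed over the series in both genotypes and was sampled later in lin-28(0) at each of these hours. Whether that affects its tally was not tested. At equal hours of 16 to 19 h it averaged 154.2 CPM in lin-28(0) and 60.9 CPM in WT.

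**Figure D5:**
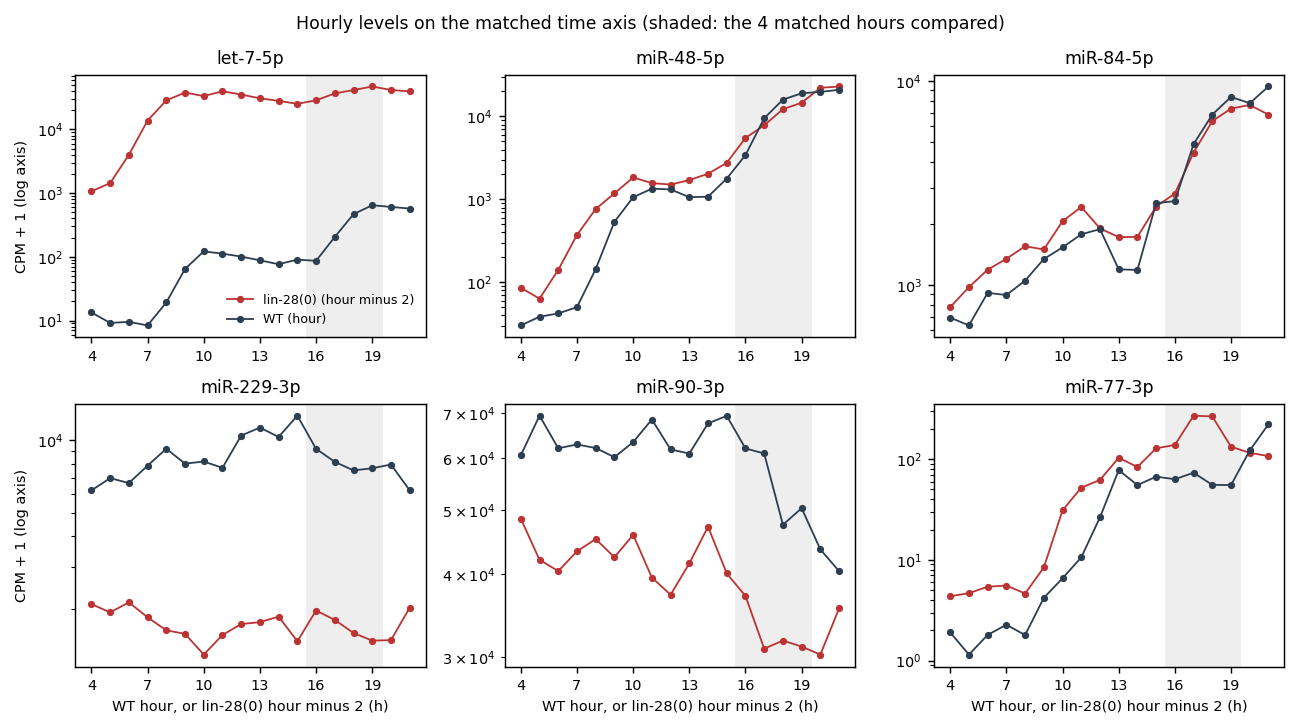
Hourly levels in CPM plus 1 (log axes) of 6 strands, with the lin-28(0) library of 2 h later plotted at each WT hour and the 4 matched hours shaded. let-7-5p and miR-229-3p are apart at every hour shown, miR-48-5p and miR-84-5p run together in the shaded hours, and the curves of miR-77-3p cross after them.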

How the data were processed

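The authors deposited raw counts per mature miRNA strand. Their methods name QuasR for adapter removal, Bowtie for alignment to ce10 (version not given in the sources used here; at most 100 hits per read) and a window of 3 bases around the 5′ end of each miRBase strand for counting. Small RNA was sequenced in 3 reactions with different library kits, and which of them entered the counts is not stated. Loci with the same 5′ sequence share reads. The deposited log2 values were recalculated from the counts (library totals scaled to their mean, plus 8) and matched within 0.0005. They were used in 1 alternative.

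Counts of the 8 libraries were tested with edgeR 4.0.16 in R 4.3.3 (robust quasi-likelihood, TMM) on 246 strands with a model of genotype and a shared linear term of the matched hour, and a threshold of 0.01 on Benjamini-Hochberg adjusted p-values. The study describes a model with a smooth curve of matched time for a delayed mutant, ebax-1, and not for lin-28(0). It was carried over here with the curve reduced to a line. The change between cycles was the genotype by cycle term in 16 libraries. Standard errors are the log2 difference over the root of the F statistic. Fits were checked on simulated counts. No 2 libraries of a genotype agreed within sampling noise. The hour pairs deviated together to differing degrees (correlations of 0.63, 0.16, 0.40 and 0.47). For lin-28(0) 19 h and 21 h, WT 16 h and 18 h correlated better than the assigned partners. The pair was added as a replicate block in an alternative. Other alternatives changed the normalization, tool (DESeq2 1.42.0, limma 3.58.1), filter, time term, offset and libraries.

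The strands named comprise both families of heterochronic miRNAs (let-7, lin-4), up to 10 rises and 10 falls past the threshold that reached 10 CPM and had 1 sign in 4 of 4 pairs, the other strand of these precursors, up to 10 strands called at equal hours and not at the offset, and the mir-229 cluster. Members, lists and rules were chosen with earlier results of these data known. Genomic positions and miRNA sequences were not used here.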

Additional observations from a re-analysis of the deposited data

Results flagged for a closer look

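In 2 of 78 groups of 4 libraries a single library stood far from the other 3, and chance flags about 1 group in 20. miR-90-3p was highest in the lin-28(0) library of 18 h, at 37080 CPM, with 30866 to 31748 CPM in the 3 others. miR-84-3p was lowest in the same library, at 259 CPM, with 351 to 368 CPM in the 3 others. Without lin-28(0) 18 h the count of calls was 6, with miR-90-3p among them.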

How the results depend on the processing

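The comparison rests on 4 neighbouring hours of a single culture per genotype, so a difference between cultures and a difference between genotypes cannot be told apart. The offset was chosen on the same time courses, and let-7-3p in WT and strands near 1 CPM are limited by counting. Of the 24 alternatives, those that left out single libraries gave 5 to 11 calls and the others 6 to 12. At an adjusted p under 0.05 the count was 13. miR-229-3p, miR-8196a-3p and let-7-3p passed in 24 of 24, let-7-5p in 23 of 23, miR-90-3p in 23, miR-77-3p in 17, miR-230-3p in 15 and miR-791-3p in 6. With the matched pairs as a replicate block 7 strands passed, all among the 8, and miR-791-3p was the only call it changed among the named strands. The change between cycles was called for 0 strands, and for 1 with total counts, 8 with DESeq2, 3 with separate trends, 5 at an adjusted p under 0.05, 0 to 4 when single libraries were left out (4 without lin-28(0) 12 h, 1 without WT 16 h), and 2 with the first cycle at equal hours, which was added after seeing the data. Among the named strands no difference that passed the test changed sign under these alternatives. Differences that did not pass and lay near 0 did, among them those of miR-48-5p, miR-84-5p, miR-241-5p, miR-237-5p and lin-4-5p, and none passed with the other sign.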
